A study of Rattus norvegicus with 12 samples.

Results

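The let-7 family is a group of microRNAs (miRs) that share the same seed, the stretch near the 5′ end with which a miR pairs to its target mRNAs. The assays of the family were taken from the table of Ct values as every row named let-7 plus mmu-miR-98, a relative with the same seed. This gave 9 members out of 154 miRs: mmu-let-7a, mmu-let-7b, mmu-let-7c, mmu-let-7d, mmu-let-7e, mmu-let-7f, mmu-let-7g, mmu-let-7i and mmu-miR-98. The DRG (dorsal root ganglia) hold the cell bodies of the sensory neurons. In the DRG of rats with a nerve injury or sham surgery, mmu-let-7e had the highest mean level of the members by Ct. It was the highest member in 10 of 12 arrays, and mmu-miR-98 was the lowest in all 12. This order holds for Ct values and not for molecules. For no member did a difference between the groups or between the DRG levels pass the test against the spread of the arrays, and the 95% intervals of these differences had half-widths of at least 0.66 cycles, or of at least 0.43 cycles when arrays of the same replicate number were compared with each other.

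The rats were adult male Sprague-Dawley animals of 250 to 300 g, and the DRG were taken on Day 23 after surgery, ipsilateral to the injury. In Sural-SNI (spared nerve injury) the common peroneal and tibial branches of the sciatic nerve were ligated and cut and the sural branch was left, in Tibial-SNI the common peroneal and sural branches were ligated and cut and the tibial branch was left, and in Sham the branches were exposed but left whole. Each of these 3 groups had 4 microarrays, 2 of L3-DRG and 2 of L4-DRG (L for lumbar), and each array held the RNA of a single DRG. In rats most sensory neurons of the sciatic nerve lie in the lower lumbar ganglia (L4-DRG and L5-DRG), and those of the saphenous nerve, which was not cut, in L3-DRG. The arrays carry the replicate number 1 or 2 in each group and level, and the sources used here do not say whether L3-DRG and L4-DRG of the same number came from the same rat, so that the p-values measure only the spread between these samples.

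Mature let-7 is made from hairpin precursors and binds sites in mRNAs through its seed, which lowers the translation and the stability of these mRNAs. Its level is low in stem cells and rises as cells differentiate. The RNA-binding protein LIN28 blocks the processing of the precursors, and the let-7 targets include Lin28 itself, the Hmga2 chromatin gene and the Ras and Myc growth genes. In the peripheral nervous system let-7 is known for restraining the regrowth of injured axons.

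The mature sequences of the members, taken by name from RefSeq for the rat (build GRCr8), are shown because all results below are read against how little the members differ. Capitals mark the seed, bases 2 to 8 from the 5′ end.
let-7a: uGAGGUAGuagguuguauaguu
let-7b: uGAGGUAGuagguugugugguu
let-7c: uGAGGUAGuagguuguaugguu
let-7d: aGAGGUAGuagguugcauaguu
let-7e: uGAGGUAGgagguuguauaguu
let-7f: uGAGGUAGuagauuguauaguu
let-7g: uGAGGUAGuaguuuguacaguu
let-7i: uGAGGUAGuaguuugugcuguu
miR-98: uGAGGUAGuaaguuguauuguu

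All 9 members have 22 bases and 1 seed, so the family forms a single seed group, and none of the 119 other miRs of the table that could be matched by name to a rat sequence carries this seed. The members differ from let-7a by 1 to 4 bases outside the seed. With positions counted from 1 at the 5′ end and the base of let-7a given first, let-7e differs by U9G alone, let-7f by G12A alone and let-7c by A19G alone. Let-7b differs by A17G and A19G, let-7d by U1A and U16C, let-7g by G12U and U18C, and miR-98 by G11A and A19U. Let-7i is the farthest from let-7a, with G12U, A17G, U18C and A19U. Because assays for such near-identical miRs can pick up each other to some degree, the value of each single member is uncertain to an extent that these data do not give. The assays carry mouse names.

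These 9 members come from 12 rat genes, since let-7a, let-7c and let-7f are each made from 2. Mature let-7e lies at chr1:67350243-67350264 (plus strand, GRCr8) inside the span of the gene Spaca6, beside Mir99b and Mir125a. Mature miR-98 lies at chrX:24460663-24460684 and a let-7f copy at chrX:24460052-24460073, both inside the span of Huwe1. On chromosome 17 a let-7a copy at chr17:16320145-16320166, the other let-7f copy at chr17:16320508-16320529 and let-7d at chr17:16322273-16322294 lie together within a long noncoding RNA gene. On chromosome 7 a let-7c copy at chr7:118683636-118683657 and let-7b at chr7:118684044-118684065 lie outside any other annotated gene, and let-7i at chr7:60527935-60527956 (minus strand) lies inside the span of an unnamed protein-coding gene, with no other miR gene within 10000 bases. Let-7g lies at chr8:115701026-115701047, inside the spans of Rpl29 and Wdr82. The remaining copies are let-7a at chr8:50805219-50805240, with Mir100 within 10000 bases, and let-7c at chr11:29688127-29688148, with Mir99a within the same distance.

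The level of a miR is given as −ΔCt. Ct is the PCR cycle at which the fluorescence of an assay passes a threshold, ΔCt is the Ct of the miR minus the mean Ct of the reference assays MammU6, snoRNA135 and U87, and a −ΔCt higher by 1 stands for a doubling. All 108 Ct values of the members were at or below 35, and 8 were above 32. PCR ran for 40 cycles, and none of the Ct values reached that number. Over the 12 arrays the mean Ct of all miRs lay between 27.2 and 30.5, and it was 29.9 over the arrays numbered 1 and 27.8 over those numbered 2. The mean of the 3 reference assays moved with it, from 25.9 to 24.4. Of these assays snoRNA135 moved the most, from 32.9 to 28.9, and U87 moved from 27.3 to 25.8. MammU6 moved the other way, from 17.6 to 18.5. Markers of sensory neurons (miR-182, miR-183 and miR-96) were represented by 2 of the 3 miRs, with Ct values from 22.3 to 29.2. Arrays of bulk tissue cannot tell fewer cells of a type from less RNA per cell.

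Mmu-let-7e had the highest level of the family, with a −ΔCt of −0.35 ± 0.73 (SD, n = 12), and ranked 20 of 154 by its mean Ct of 25.5. It was the highest member in 10 of the 12 arrays. In the order L3-DRG replicates 1 and 2, then L4-DRG replicates 1 and 2, its −ΔCt was −0.36, 0.01, 0.59 and −1.05 in Sham, 0.61, −1.20, −0.34 and −1.03 in Sural-SNI, and 0.59, −0.80, 0.09 and −1.34 in Tibial-SNI. The high and the low values of let-7e occurred in all 3 groups, and the groups overlapped. Let-7g (−1.73 ± 0.52), let-7c (−1.87 ± 0.43) and let-7i (−2.20 ± 1.03) followed (SD, n = 12 each). Below them lay let-7b (−3.36 ± 0.50), let-7d (−3.49 ± 0.47), let-7a (−3.85 ± 0.70) and mmu-let-7f (−4.54 ± 0.74). Mmu-miR-98 was the lowest member in all 12 arrays, at −7.11 ± 0.99, and ranked 143 of 154. In the same order of arrays it was −7.68, −6.54, −9.64 and −5.83 in Sham, −6.79, −7.41, −7.55 and −6.08 in Sural-SNI, and −6.33, −7.03, −7.13 and −7.31 in Tibial-SNI, so that both its highest and its lowest value were in Sham. The mean gap between mmu-let-7e and mmu-miR-98 was 6.76 cycles and the smallest was 4.79. Levels of different assays also depend on how efficiently each assay amplifies, which these data do not give, so that the order holds for Ct values and not for molecules.

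Not every step in this order held in each array. Let-7e lay above let-7g in 11 of 12 arrays, let-7a above let-7f in 11, let-7i above let-7b in 10, let-7b above let-7d in 9, and let-7f above miR-98 in 12. Let-7g against let-7c (mean gap 0.15 ± 0.76) and let-7c against let-7i (0.32 ± 0.83) went each way in 6 of 12 arrays, and let-7d lay above let-7a in 7 (SD, n = 12). The median of the 9 members was −3.18 ± 0.34 (SD, n = 12), against −3.93 ± 0.54 for the median of all 154 miRs.

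**Figure D1:**
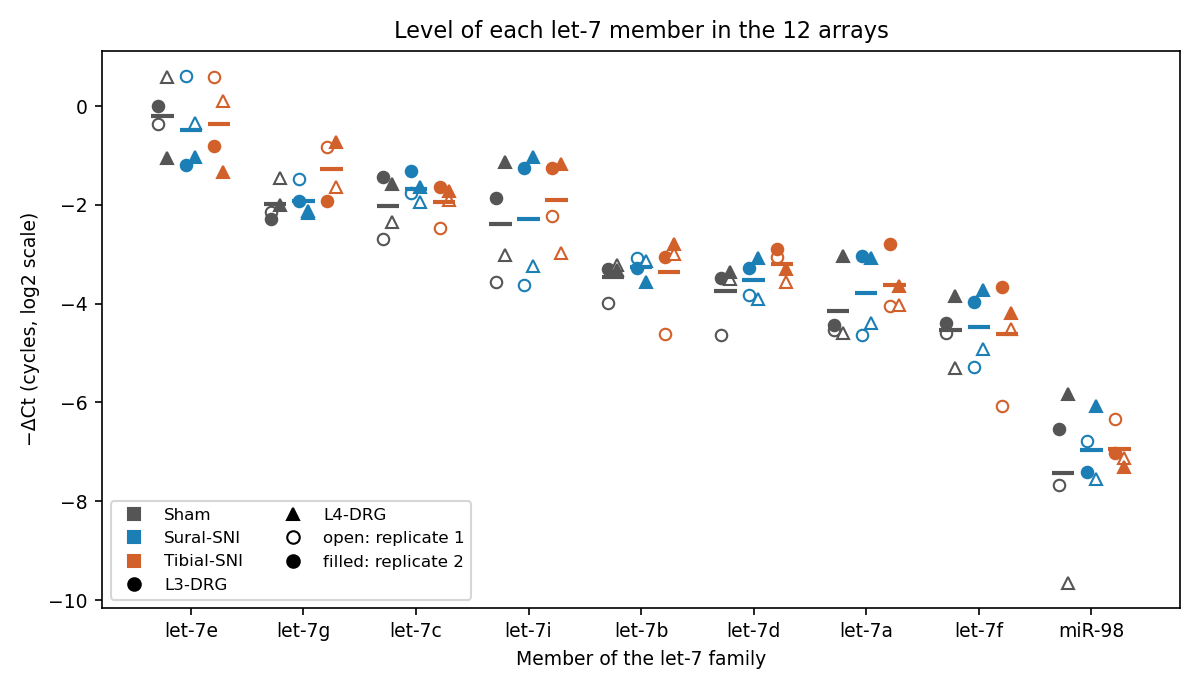
The level of each member (−ΔCt in cycles, a log2 scale) is plotted for the 12 arrays, coloured by group, with circles for L3-DRG and triangles for L4-DRG, open for replicate 1 and filled for replicate 2, and a bar for the mean of the 4 arrays of a group. The members keep their rough order in all 3 groups, let-7e is highest, miR-98 is lowest in every array, and the lowest point of all is miR-98 in replicate 1 of L4-DRG from Sham at −9.64.

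Summed over the 9 members on the linear scale (2 to the power of −ΔCt), the log2 of the family total was 0.97 ± 0.33 in Sham, 0.99 ± 0.25 in Sural-SNI and 1.16 ± 0.18 in Tibial-SNI (SD, n = 4 each). The lowest and the highest totals were 0.52 and 1.30 in Sham, 0.72 and 1.33 in Sural-SNI, and 1.05 and 1.44 in Tibial-SNI, so that the 3 groups overlapped. Mmu-let-7e alone made up 41.4% ± 16.1 of this total, let-7g 15.3% ± 4.91, let-7c 13.9% ± 4.15 and let-7i 13.3% ± 8.43 (SD, n = 12). The order of the last 3 depended on the replicate number. In the arrays numbered 1 let-7g, let-7c and let-7i made up 15.8%, 10.9% and 5.74%, and in those numbered 2 they made up 14.8%, 17.0% and 20.8%. MiR-98 made up 0.418% ± 0.225 (SD, n = 12). These shares were taken from Ct values, without correction for assay efficiency.

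The share of let-7e averaged 46.9% ± 15.7 over the Sham arrays, 39.1% ± 18.2 over Sural-SNI and 38.1% ± 17.8 over Tibial-SNI (SD, n = 4 each). The lowest shares were 25.1%, 22.7% and 18.6% in this order of groups and the highest 61.4%, 60.5% and 55.5%, so that the groups overlapped. The members differed from each other in how they changed between the arrays numbered 1 and 2. In the 6 pairs of arrays of the same group and level, let-7i was higher in replicate 2 in 6 of 6 pairs, by 1.82 ± 0.48 cycles of −ΔCt. Its −ΔCt ran from −3.63 to −2.24 in the arrays numbered 1 and from −1.85 to −1.03 in those numbered 2, with no overlap. Let-7f (−6.08 to −4.50 against −4.38 to −3.67) and let-7c (−2.70 to −1.77 against −1.72 to −1.32) did not overlap either. Let-7f, let-7a, let-7c and let-7d were also higher in 6 of 6 pairs, by 1.15 ± 0.81, 1.04 ± 0.64, 0.63 ± 0.40 and 0.52 ± 0.41. MiR-98 and let-7b were higher in 3 of 6 pairs, by 0.82 ± 1.72 and 0.29 ± 0.73 on average. Let-7g differed by −0.22 ± 0.67, and let-7e went the opposite way to most members, with −1.10 ± 0.81 and a higher value in replicate 2 in only 1 of 6 pairs (SD, n = 6 pairs). Over all 154 miRs the median of this difference was 0.52, with the middle 50% between −0.39 and 1.37. Counted from the lowest difference, let-7e ranked 20, let-7d 77, let-7c 83, let-7a 105, let-7f 108 and let-7i 123 of 154. How many of all miRs were higher in 6 of 6 pairs, or had no overlap between the numbers, was not counted. These counts are thus no result about the members.

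The Ct values show the same contrast before any reference is used. From replicate 1 to replicate 2 the mean Ct of let-7i changed by −3.36 cycles and that of let-7e by −0.43. The sign of a member's difference depends on the reference. With MammU6 alone all 9 members were higher in replicate 2 (let-7e by 1.29), and with snoRNA135 alone all 9 were lower (let-7i by −0.59). Relative to the median over all miRs, which moves with the reference by the same amount as each miR, the difference was 1.30 for let-7i and −1.62 for let-7e. As a result mmu-let-7e exceeded let-7i by 3.31 cycles in the arrays numbered 1 and by 0.38 in those numbered 2, and its share of the family total was 55.0% ± 5.30 and 27.7% ± 9.80 (SD, n = 6 each). The family total itself was 1.06 ± 0.37 in replicate 1 and 1.01 ± 0.08 in replicate 2 on the log2 scale (SD, n = 6 each). This total moves with the reference by the same amount as each member. Over all miRs the median difference was 2.91 with MammU6 alone and −1.89 with snoRNA135 alone, against 0.52 with the mean of the 3. The closeness of the totals thus does not hold with either of these references alone. What the replicate numbers stand for is not stated, and no test was made between them.

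**Figure D2:**
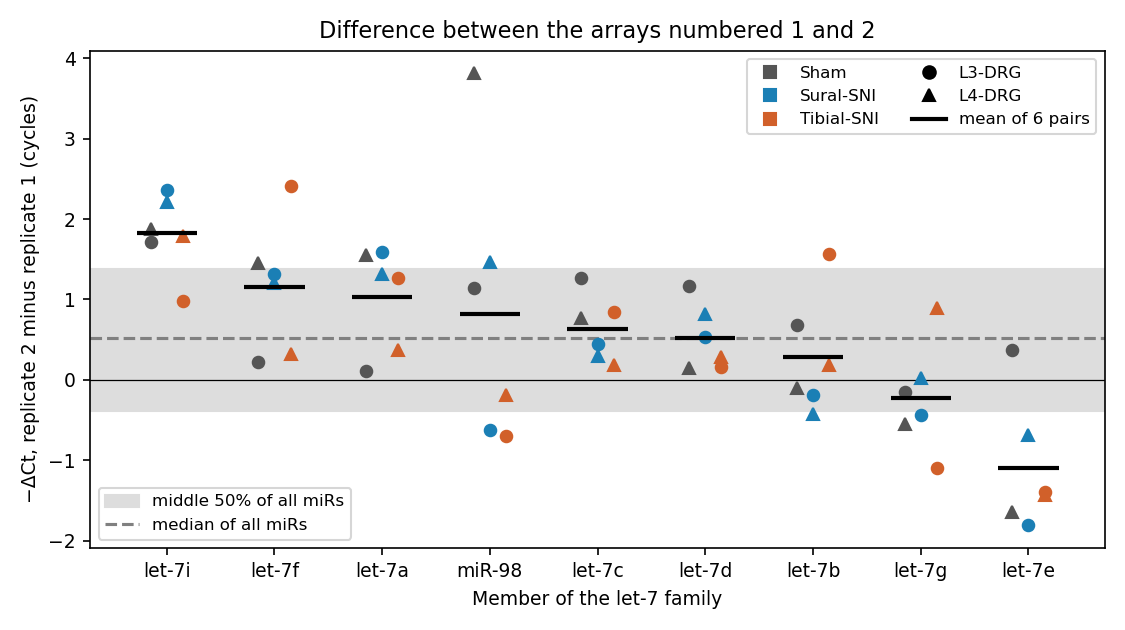
For each member the difference in −ΔCt (cycles) between replicate 2 and replicate 1 is plotted for the 6 pairs of arrays of the same group and level, with the mean as a bar. The grey band holds the middle 50% of the 154 miRs and the dashed line their median, 0.52. The 6 points of let-7i lie between 0.99 and 2.37, while 5 of the 6 points of let-7e lie below 0.

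To ask whether the family responded to the injury that leads to lasting pain, Sural-SNI was compared with Sham. Of the 9 members 8 had a difference above 0, as had 68.8% of all 154 miRs, and the median difference was 0.20 on the log2 scale over the members and 0.15 over all miRs. With limma the adjusted p was under 0.05 for 0 of the 9 members and the unadjusted p for 0, as was the case for all 154 miRs (0% and 0% called). With the replicate number and level as a block, so that arrays of the same number are compared with each other, the members again gave 0 at an unadjusted p under 0.05 where 6.49% of all miRs passed. In 0 of the 9 members did the 4 fold changes lie on 1 side of 0, which 14.9% of all miRs showed, and in 0 were the arrays of the groups fully apart (1.95% of all miRs).

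Let-7c, made from 2 genes, had the smallest p. Its log2(fold change), taken against the Sham array of the same level and number, was 0.93 and 0.11 in the L3-DRG arrays and 0.41 and −0.06 in the L4-DRG arrays (replicates 1 and 2). Both values of replicate 1 were above both of replicate 2. The difference was 0.35 with a standard error of 0.37 (95% interval −0.47 to 1.16, limma adjusted p = 1.00), and −0.15 to 0.85 was the interval with the block. Without replicate 1 of L3-DRG from Sham, in which let-7c had its lowest −ΔCt, −2.70, the difference was 0.10.

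Let-7a, the sequence that the other members are compared with, had log2(fold change) values of −0.10 and 1.39 in L3-DRG and 0.19 and −0.05 in L4-DRG. A single array stood high, and the difference was 0.36 (standard error 0.53, 95% interval −0.82 to 1.54). MiR-98 had values of 0.89 and −0.86 in L3-DRG and 2.09 and −0.25 in L4-DRG, above 0 in both arrays numbered 1 and below 0 in both numbered 2. Its difference of 0.47 (standard error 0.73, 95% interval −1.15 to 2.09) turned to −0.31 without replicate 1 of L4-DRG from Sham, in which miR-98 had its lowest −ΔCt, −9.64. Mmu-let-7e, which had the highest mean level, was the single member with a difference below 0, at −0.29 (standard error 0.56, 95% interval −1.53 to 0.95). Its fold changes ran from −1.21 to 0.97. Mmu-let-7f differed by 0.06 (standard error 0.58), with fold changes from −0.68 to 0.41.

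Tibial-SNI, after which the allodynia resolves, was compared with the same Sham arrays, so that the comparisons of both SNI groups with Sham share their controls. Of the 9 members 7 had a difference above 0, as had 81.2% of all miRs. The median difference was 0.47 over the members and 0.23 over all miRs, and it was 0.08 over the members without replicate 1 of L3-DRG from Sham. In limma 0 members passed an adjusted p of 0.05 (0% of all miRs) or an unadjusted p of 0.05 (0.649% of all miRs), and 0 passed the unadjusted threshold with the block, where 9.74% of all miRs did. In 0 of 9 members did the 4 fold changes lie on 1 side of 0 (21.4% of all miRs), and in 0 were the arrays of the groups apart (1.3%).

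Let-7g, made from a single gene on chromosome 8, came nearest to the threshold. Its −ΔCt was −2.15, −2.30, −1.46 and −2.002 in Sham and −0.82, −1.92, −1.63 and −0.73 in Tibial-SNI (L3-DRG replicates 1 and 2, then L4-DRG replicates 1 and 2). The Tibial-SNI arrays were higher in 3 of 4 pairs and the groups overlapped. The log2(fold change) was 0.70 ± 0.73 (SD, n = 4). The limma difference was 0.70 (standard error 0.36, 95% interval −0.11 to 1.51, adjusted p = 0.997), and with the block the interval was −0.01 to 1.40 (adjusted p = 0.452). Within replicate 1 the mean fold change was 0.57 and within replicate 2 it was 0.82.

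Let-7d, which shares its gene cluster with let-7a and let-7f, had fold changes of 1.59 and 0.59 in L3-DRG and of −0.08 and 0.06 in L4-DRG. It was thus higher in both L3-DRG arrays and near 0 in both L4-DRG arrays. Its difference was 0.54 (standard error 0.37, 95% interval −0.28 to 1.36, adjusted p = 0.997 in limma, 0.452 with the block), and it was 0.22 without replicate 1 of L3-DRG from Sham, in which let-7d had its lowest −ΔCt, −4.64. Let-7a had fold changes of 0.49 and 1.65 in L3-DRG and of 0.57 and −0.62 in L4-DRG, and a difference of 0.52 (standard error 0.53, 95% interval −0.66 to 1.70). Mmu-let-7e (−0.16, standard error 0.56) and mmu-let-7f (−0.07, standard error 0.58) were the 2 members below 0, and mmu-miR-98 had fold changes from −1.48 to 2.52. In the same comparison the vascular smooth muscle miRs miR-145 and miR-143 differed by 0.68 and 0.90 and the 4 assays of skeletal muscle miRs by 0.15 to 0.86, with an adjusted p under 0.05 for none and an unadjusted p under 0.05 for 1 vascular miR, with the block. Their part in the values of let-7g and let-7d was not tested.

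**Figure D3:**
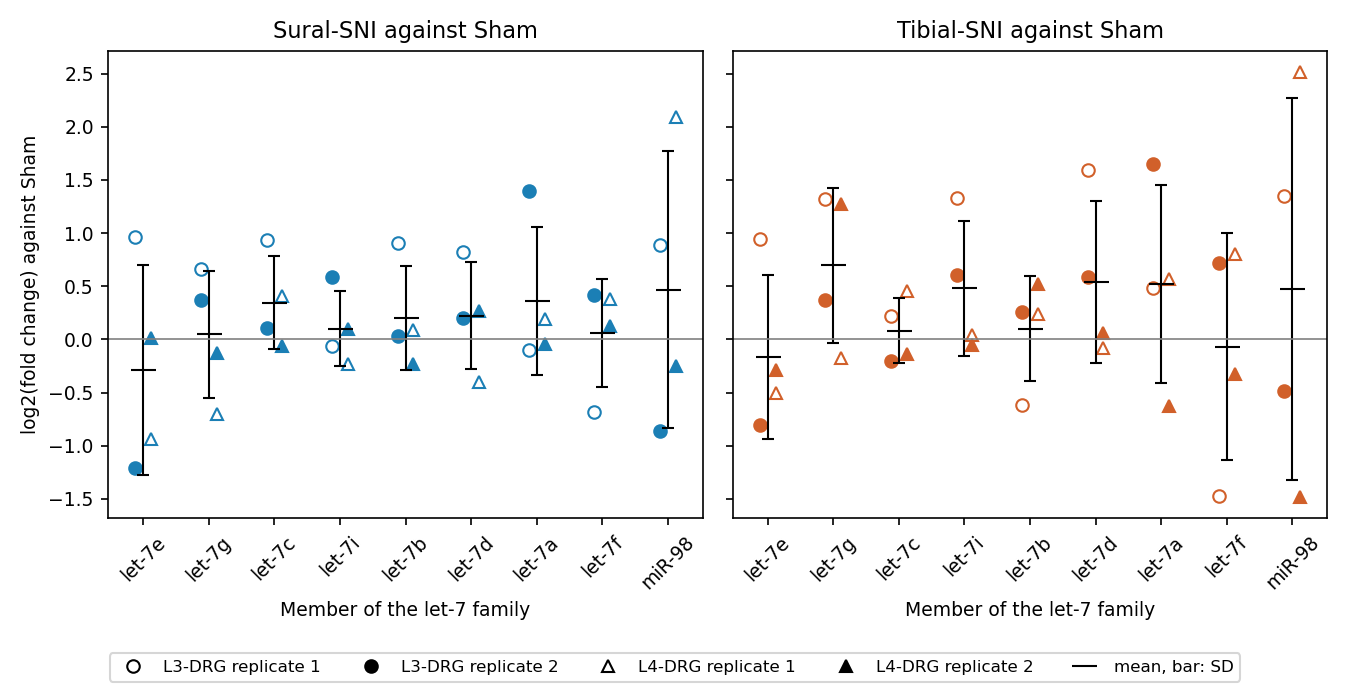
The log2(fold change) of each member against the Sham array of the same level and replicate number is plotted for Sural-SNI (left) and Tibial-SNI (right), with circles for L3-DRG, triangles for L4-DRG, open symbols for replicate 1, filled symbols for replicate 2, and the mean with its SD (n = 4) in black. Every member has points on both sides of 0 in both panels, and miR-98 has the widest spread, from −1.48 to 2.52 in Tibial-SNI.

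Tibial-SNI was set against Sural-SNI on the log2(fold change) over Sham, with 4 values from each SNI group, taken as unpaired unless the block was used. Values of the same level and number share their Sham array, so that without the block the spread of the Sham arrays enters the error. Over the members the median standard error was 0.45 without the block and 0.28 with it. For let-7b alone it was larger with the block. The median difference was 0.13 over the members, 6 of which were above 0, and 0.10 over all miRs. It was 0.46 over the members without replicate 2 of L4-DRG from Tibial-SNI. In limma no member had an adjusted p under 0.05, against 0.649% of all miRs (a single miR, which is not a member), and none an unadjusted p under 0.05, against 2.6% of all miRs. With the block 0 members and 3.9% of all miRs passed the unadjusted threshold, and with the one-tailed unpaired test and the threshold of the study (0.09) 0 members and 11% of all miRs passed.

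Let-7g was higher in Tibial-SNI than in Sural-SNI in 4 of 4 pairs of the same level and number, the single member of the 9 for which all pairs went one way, which 14.3% of all miRs did. The pairs differed by 0.66 and 0.00 in L3-DRG and by 0.53 and 1.40 in L4-DRG, so that 1 pair showed nearly no difference. The difference was 0.65 (standard error 0.45, 95% interval −0.38 to 1.68, adjusted p = 0.995 in limma), and with the block the interval was −0.04 to 1.34 (adjusted p = 0.776). The groups of arrays overlapped in −ΔCt for let-7g and for the other 8 members (0 of 9, against 1.3% of all miRs).

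Let-7i differed between the SNI groups by 0.38 (standard error 0.38, 95% interval −0.48 to 1.24), with pairs of 1.39 and 0.01 in L3-DRG and of 0.27 and −0.15 in L4-DRG, and so mainly in 1 pair. Let-7c differed by −0.26 (standard error 0.31, 95% interval −0.98 to 0.45) and was lower in Tibial-SNI in 3 of 4 pairs. For mmu-let-7e, mmu-let-7f and mmu-miR-98 the differences were 0.13, −0.13 and 0.01, with 95% intervals of −1.17 to 1.42, −1.36 to 1.10 and −2.17 to 2.18. With the block the intervals were −0.42 to 0.67, −0.83 to 0.57 and −0.88 to 0.89, which no longer hold a difference of 1 cycle. They do hold smaller ones, so that the values do not show that these members were at the same level in both groups. In the same comparison the 4 assays for the 3 skeletal muscle miRs measured of 4 listed (miR-1, miR-133a and miR-133b, but not miR-206) differed by 0.57 to 1.61 and both vascular smooth muscle miRs (miR-145 and miR-143) by 0.87 and 1.07. None of these had an adjusted p under 0.05 in limma, and an unadjusted p under 0.05 was found for 1 skeletal muscle assay and for both vascular miRs. On the log2 scale the summed skeletal muscle level ranged between 0.59 and 1.73 in Sham, between −0.17 and 1.35 in Sural-SNI and between 0.01 and 4.41 in Tibial-SNI. The vascular sum ranged between −1.99 and 0.18, −2.23 and 0.50, and −0.97 and 0.92 in the same groups. Their part in the values of let-7g and let-7i was not tested.

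**Figure D4:**
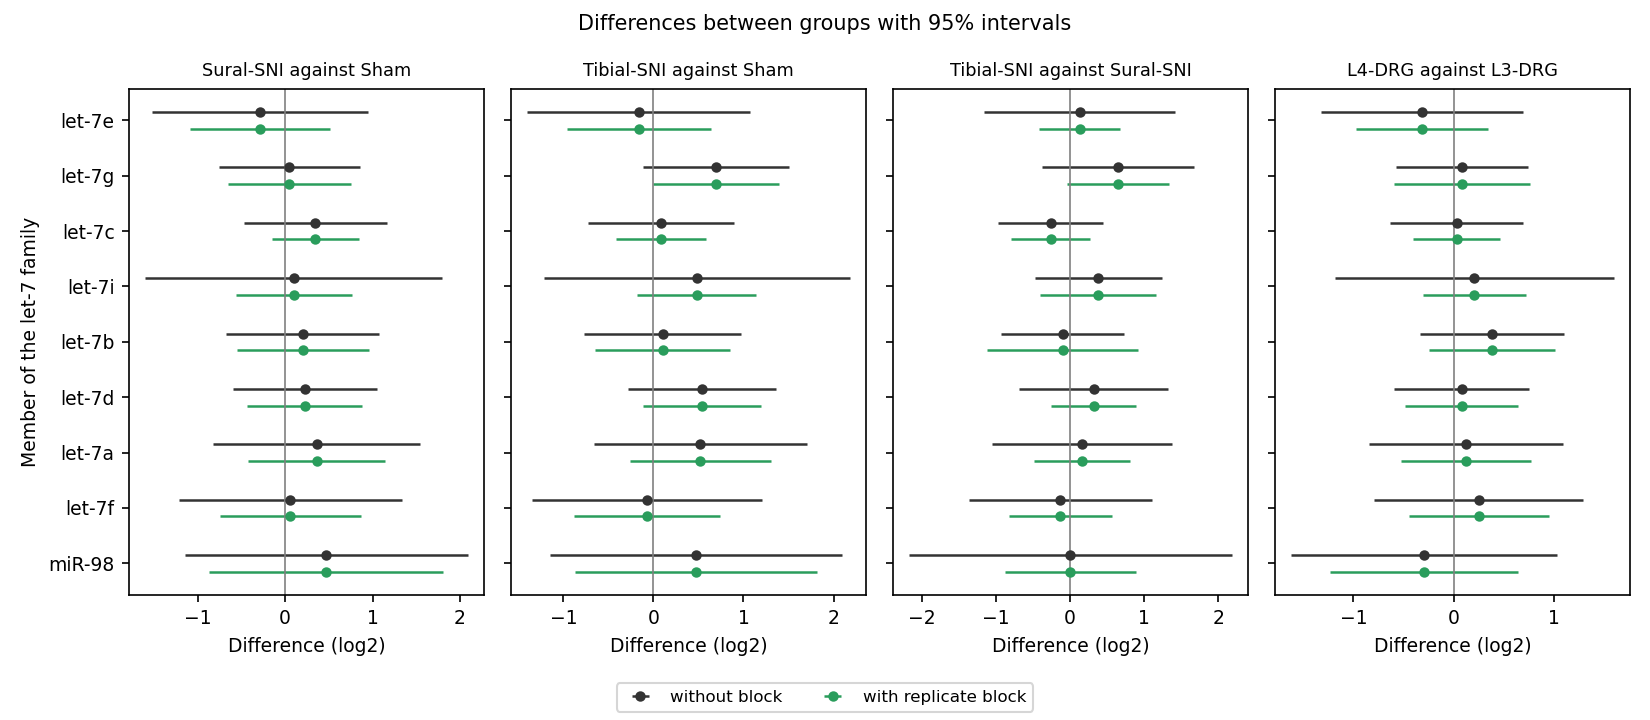
The difference of each member on the log2 scale is plotted with its 95% interval from limma for 4 comparisons, without the block in black and with the replicate block in green. All 72 intervals contain 0, and that of let-7g in Tibial-SNI against Sham comes closest to leaving it out, with −0.01 to 1.40 with the block.

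Between the levels, L4-DRG was compared with L3-DRG over all 12 arrays. The median difference of the members was 0.08, with 7 of 9 above 0, and that of all miRs was −0.01. The direction of the members' median was not stable, with −0.09 when snoRNA135 alone was the reference and −0.08 without replicate 2 of L4-DRG from Sham. No member passed an adjusted p of 0.05 in limma (0% of all miRs), an unadjusted p of 0.05 (1.95%) or an unadjusted p of 0.05 with the block (5.84%). In 0 of 9 members did all 6 pairs of the same group and number go one way (3.25% of all miRs), and in 0 were the arrays of the levels apart (0% of all miRs). Let-7b, made from the cluster on chromosome 7, had the smallest p, with a difference of 0.38 (standard error 0.32, 95% interval −0.34 to 1.09). It was higher in L4-DRG in 3 of 6 pairs, and the largest of these pair differences, 1.62, came from replicate 1 of Tibial-SNI. Mmu-let-7e differed by −0.32 (standard error 0.46, 95% interval −1.33 to 0.69) and was lower in L4-DRG in 4 of 6 pairs. Mmu-let-7f differed by 0.25 (standard error 0.47, 95% interval −0.80 to 1.29) and by −0.09 without replicate 1 of L3-DRG from Tibial-SNI, in which it had its lowest −ΔCt, −6.08.

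An interaction of injury and level asked, for each SNI group, whether the response in L4-DRG differed from that in L3-DRG. For Sural-SNI the members had a median of −0.35 (L4-DRG minus L3-DRG), the same as that of all miRs, −0.35. For Tibial-SNI the medians were −0.30 and −0.47. No member passed an adjusted p of 0.05 in limma in either interaction (0% of all miRs in each), and none an unadjusted p of 0.05 (0.649% of all miRs for Sural-SNI and 1.3% for Tibial-SNI). With the block the members again gave 0, where 7.79% and 11% of all miRs passed the unadjusted threshold.

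In Sural-SNI let-7g was above Sham in both L3-DRG arrays, with fold changes of 0.66 and 0.37, and below Sham in both L4-DRG arrays, with −0.70 and −0.13. The interaction was −0.93 (standard error 0.76, 95% interval −2.67 to 0.81, limma adjusted p = 0.999). Let-7d (−0.58, standard error 0.75) and let-7b (−0.54, standard error 0.81) came next, and that of let-7d was 0.00 without replicate 1 of L3-DRG from Sham. In Tibial-SNI the interaction of let-7d was −1.10 (standard error 0.75, 95% interval −2.82 to 0.62, limma adjusted p = 1.00) and with the block its interval was −2.24 to 0.04 (adjusted p = 0.443). The L3-DRG side of this interaction of let-7d also rests on replicate 1 of L3-DRG from Sham. There let-7d was −4.64, against −3.49 to −3.35 in the other Sham arrays. MiRs of neurons also had interactions below 0, as had most miRs. Of all 154 miRs 23.4% lay above 0 for Sural-SNI and 27.9% for Tibial-SNI. For Sural-SNI the sensory neuron miRs miR-182 and miR-183 had interactions of −0.49 and −1.46 and the neuron miR miR-9 of −1.10, and for Tibial-SNI they had −0.37, −1.01 and −1.55. In limma 0 of the 3 had an adjusted p under 0.05 and miR-183 alone an unadjusted p under 0.05, for Sural-SNI, and with the block miR-183 and miR-9 had one for both. On the log2 scale the summed sensory neuron level in Sham was 1.91 to 2.08 in L3-DRG and 1.88 to 1.89 in L4-DRG. It was 1.74 to 2.01 and 1.02 to 1.42 in Sural-SNI, and 1.54 to 2.59 and 1.40 to 1.70 in Tibial-SNI. In L4-DRG the values of both SNI groups thus lay below those of Sham, with 2 arrays each, and in L3-DRG the groups overlapped. MiR-9 in L4-DRG was −1.17 to −0.05 in Sham, −1.37 to −0.58 in Sural-SNI and −1.42 to −1.23 in Tibial-SNI. Sural-SNI thus overlapped Sham for miR-9. In L3-DRG it was −1.60 to −1.20, −0.87 to −0.44 and −0.60 to −0.53 in this order, higher in both SNI groups. How many of all miRs lay apart in this way was not counted. The part of these miRs in the values of let-7g and let-7d was not tested. Among the members, let-7a followed with −1.09 (standard error 1.14), and let-7b with 0.56 (standard error 0.81), which was −0.22 without replicate 1 of L3-DRG from Tibial-SNI. The intervals of these interactions reached 1.72 to 3.89 cycles to each side without the block, so that a difference of a full cycle between the levels was not detectable with 2 arrays of a level in each group.

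The members did not move as a unit across the arrays. Over the 36 pairs of members the correlation of −ΔCt across the 12 arrays ran from −0.85 to 0.87, with a median of 0.23, and after the means of each level and number were removed it ran from −0.64 to 0.83, with a median of 0.07. All these values share the same reference Ct and the difference between the replicate numbers, and they are given as a description (n = 12 arrays). Let-7i with let-7a (0.87) and let-7i with let-7d (0.77, and 0.83 without the means) had the highest values, although let-7i differs from let-7d by 6 bases. With all miRs averaged as the reference the first of these was 0.63 and the second 0.09, and over all pairs the values ran from −0.87 to 0.69, with a median of −0.09, so that the likeness of these pairs moves with the choice of reference. Mmu-let-7e with mmu-let-7f (−0.85) and mmu-let-7e with let-7a (−0.78) had the lowest values, although they differ by 2 and 1 bases. The 4 pairs that differ by a single base had correlations from −0.78 to 0.75. The 5 pairs that lie beside each other in the genome had correlations from 0.25 to 0.75, among them let-7f with let-7a (0.75), let-7d with let-7a (0.68, and 0.03 with that reference), let-7c with let-7b (0.61) and miR-98 with let-7f (0.29). Without the means of level and number they ran from −0.57 (let-7f with let-7d) to 0.57 (let-7c with let-7b).

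Of the 5 miRs that share gene clusters with let-7 in mammals (miR-99a, miR-99b, miR-100, miR-125a-5p and miR-125b-5p), 3 were in the table. MiR-99b, miR-125a-5p and miR-125b-5p had mean Ct values of 27.5, 24.8 and 24.7. In limma 0 of these 3 passed an adjusted p of 0.05 in any of the 6 comparisons, 0 an unadjusted p of 0.05 without the block, and 1 (miR-125a-5p, in L4-DRG against L3-DRG, where 5.84% of all miRs did) an unadjusted p of 0.05 with the block. Their differences from Sham lay between −0.12 and 0.56 in Sural-SNI and between −0.06 and 0.36 in Tibial-SNI. MiR-125a-5p, encoded beside let-7e, followed let-7e across the arrays with a correlation of 0.91, and of 0.87 without the means of level and number (n = 12). Like let-7e it was lower in the arrays numbered 2 (a difference of −1.36 cycles in −ΔCt), with −0.27 ± 0.31 against 1.10 ± 0.28 (SD, n = 6 each). This direction depends on the reference, as with MammU6 alone miR-125a-5p was higher in replicate 2 by 1.03 and let-7e by 1.29. The mean Ct of miR-125a-5p was 24.8 in replicate 1 and 24.7 in replicate 2. Relative to the median over all miRs its difference was −1.88 and that of let-7e −1.62. The correlations share the reference Ct. MiR-99b, from the same cluster, was higher in the arrays numbered 2, by 1.05 cycles, and had a correlation with let-7e of −0.71, and of −0.09 without the means.

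**Figure D5:**
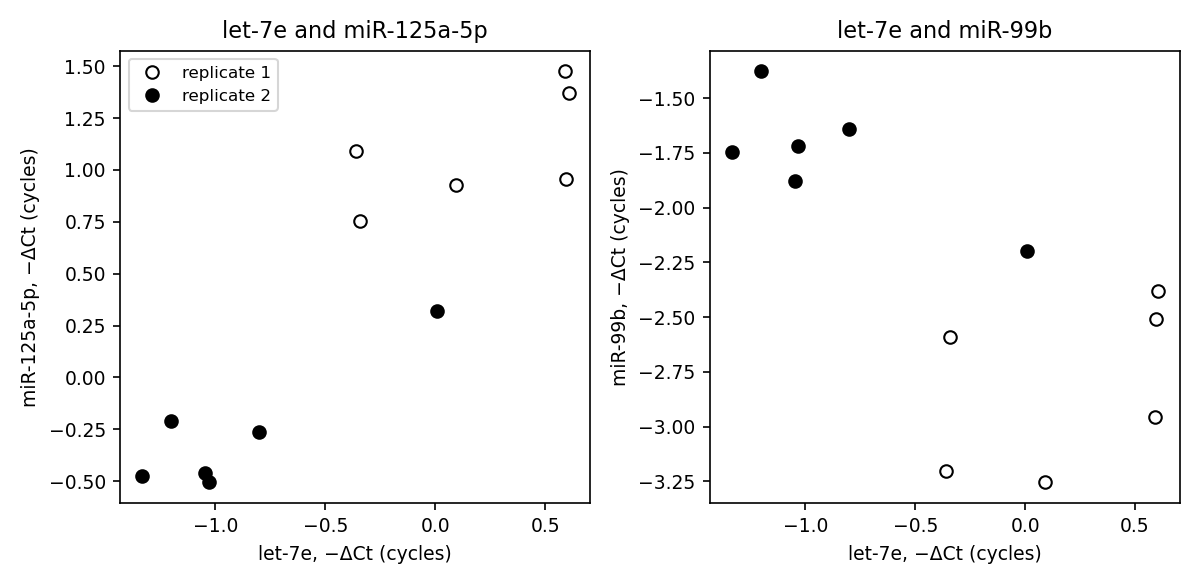
The level of miR-125a-5p (left) and miR-99b (right) is plotted against that of let-7e in the 12 arrays, all as −ΔCt in cycles, with open circles for replicate 1 and filled circles for replicate 2. MiR-125a-5p is high where let-7e is high (r = 0.91) and miR-99b is low there (r = −0.71), and in both panels the arrays of the 2 numbers form separate clouds. Both axes share the reference Ct, which differs between the numbers.

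Outside the family, the 5 miRs whose −ΔCt was most like the mean of the members over the 12 arrays were miR-29a (r = 0.96), miR-148a (0.94), miR-132 (0.93), miR-195 (0.92) and miR-19b (0.91), where the median of the 145 other miRs was 0.53. After the means of level and number were removed these values were 0.88, 0.77, 0.76, 0.74 and 0.70, where the median of the other miRs was 0.41. The reference Ct is shared by all of them.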

How the data were processed

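RNA of single DRG was put on the TaqMan Rodent MicroRNA Card A (version 2), a qPCR card run for 40 cycles. The authors deposited Ct values without normalization for miRs seen in all 12 arrays, and a linear fold change (2 to the power of −ΔΔCt) for the SNI arrays over Sham, obtained in a spreadsheet from ΔCt values of ExpressionSuite 1.0.3. Of 160 wells 154 are miRs and 6 are reference wells (4 of MammU6, averaged first). The values were recomputed from Ct, and all 72 deposited fold changes of the members came within 0.01 on the log2 scale. Ct values hold no counts, so that the number of arrays limits the precision.

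Groups, levels and numbers were taken from the sample titles. The limma package (3.58.1, R 4.3.3) was used to fit −ΔCt over the 12 arrays with group and DRG level, or with group, level and their interaction. Tibial-SNI against Sural-SNI was fitted on the 8 log2(fold change) values. Tests were two-sided, with Benjamini-Hochberg adjustment over the 154 miRs. They were checked on simulated data with planted differences larger than any found for a member. That check does not show whether differences as small as those of the members would be found. The members and lists were chosen with earlier results of these data known. The text names all members, the 3 with the smallest p in each comparison with their statistics, the 3 reference assays, the gene neighbours, and the 5 miRs most like the members' mean.

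Arrays of the same level and number deviated together from the means of their groups (r from 0.46 to 0.81 over 12 pairs, against −0.70 to −0.56 for different numbers), as did arrays of the same group and number at both levels (0.57 to 0.66 over 6 pairs). Deviations from a mean cancel out, so that the negative values follow from the positive ones and are no separate evidence. These correlations cannot tell matched arrays from a difference shared by all arrays of a number. The numbers were taken to pair the arrays on this shared deviation alone. A fit with the level and number as a block (for L4-DRG against L3-DRG, with the group and number) was added. The alternatives were other references, a Ct limit of 35 or 32, a variance trend, other forms of the Sham term, the deposited fold changes, the study's own tests, the block, and leaving out each array in turn. MiRs of other cell types were read from lists for leukocytes, red blood cells, endothelium, vascular smooth muscle, skeletal muscle, glia, neurons and sensory neurons, and 0 of them passed an adjusted p of 0.05 in limma in any comparison. Python 3.11.15 and matplotlib 3.10.9 were used for the other steps. The qPCR of single DRG and the behavioral data were not analysed here.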

Additional observations from a re-analysis of the deposited data

Results flagged for a closer look

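Of 63 groups of values (the −ΔCt of a member in an injury group or a level, and its log2(fold change) in an SNI group), 4 held a value that lay apart from the others by Dixon's criterion. Chance flags about 1 in 20 groups. In Sham, let-7d was −4.64 in replicate 1 of L3-DRG and between −3.49 and −3.35 in the other 3 arrays, and let-7b was −3.99 in the same array and between −3.32 and −3.23 in the others (−ΔCt in cycles). Let-7a was −3.03 in replicate 2 of L4-DRG from Sham and between −4.59 and −4.43 in the other 3 Sham arrays. In Tibial-SNI, let-7b was −4.61 in replicate 1 of L3-DRG and between −3.05 and −2.80 in the others.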

How the results depend on the processing

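The count of members with an adjusted p under 0.05 stayed at 0 in all 6 comparisons under every alternative run, with the replicate block as well (smallest adjusted p of a member 0.443, in the interaction of Tibial-SNI). With the block the members' median differences were those already given, and the pairing changed no call. The median difference of the members moved by more than the spread between arrays of a group (SD 0.30) in these cases. With the reference set to the average over all miRs it was 0.00236 in the interaction of Sural-SNI and 0.15 in that of Tibial-SNI. By construction that reference takes the average interaction of all miRs off each member. With the 3 reference assays the medians were −0.35 and −0.30 over the members and −0.35 and −0.47 over all miRs. Why most miRs lay below 0 was not tested. When each array was left out in turn the members' median ran from 0.0776 to 0.67 in Tibial-SNI against Sham, from −0.0122 to 0.46 in Tibial-SNI against Sural-SNI, from −0.85 to 0.0392 in the interaction of Sural-SNI and from −0.49 to 0.0570 in that of Tibial-SNI. In L4-DRG against L3-DRG the median, 0.08, changed sign within that spread, from −0.09 (snoRNA135 alone) to 0.27 over the settings and from −0.08 to 0.22 when an array was left out. Leaving out a Sham array also drops the fold changes that rest on it. The values of the 18 named differences kept their sign in 402 of 406 cases. The exceptions were miR-98 in Sural-SNI against Sham (−0.31 without replicate 1 of L4-DRG from Sham, 1.12 at the other end of the range), mmu-let-7f in L4-DRG against L3-DRG (−0.0887 without replicate 1 of L3-DRG from Tibial-SNI, up to 0.51), let-7d in the interaction of Sural-SNI (0.000498 without replicate 1 of L3-DRG from Sham, down to −1.16) and let-7b in that of Tibial-SNI (−0.22 without replicate 1 of L3-DRG from Tibial-SNI, up to 1.34). The median rank of the members by Ct, 64 of 154, moved by less than its spread between arrays. With 4 arrays a group, the half-widths of the 95% intervals against Sham were 0.81 to 1.70 cycles without the block and 0.50 to 1.34 cycles with it.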
